A study of Mus musculus with 12 samples.

Results

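Caveolin-1 loss in mouse liver was examined by comparing 3 arrays of Cav1 knockout liver with 3 arrays of wild-type liver, which are 6 of the 12 bead arrays of the study. The other 6 arrays carried gonadal adipose tissue of mice aged 8 weeks, 3 labelled wild type and 3 labelled Cav1 knockout. They enter below only as a contrast for named genes. All liver donors were male FVB mice aged 12 weeks, and the groups differed by genotype alone as far as the labels say. Livers were taken at 3 PM, in the light phase, under Ketamine/Xylazine anaesthesia. The source of the knockout allele and whether replicates were separate animals are not stated, so the p-values reflect the spread among these 6 samples, and that spread may be technical. Of the 34885 probes with 1 gene symbol, the 13324 that were above background on at least 3 of the 6 liver arrays were compared, and they belong to 9033 genes.

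Caveolin-1 is the principal coat protein of caveolae, small flask-shaped pits of the plasma membrane. It works with the cavins, which stabilise the coat, and with the membrane-shaping proteins of the EHD and pacsin families. Caveolae are abundant in endothelial cells, adipocytes and fibroblasts and sparse in hepatocytes, the cells that make up most of the liver's mass. In liver, caveolin-1 has been linked to lipid handling, bile acid metabolism and regeneration. The comparison asks which liver transcripts differ in its absence.

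Between 33.7% and 36.5% of all probes lay above background on each liver array, and all 18 hepatocyte markers examined were measured. Most markers of other tissues were not measured, and adiponectin (Adipoq) and the bile duct keratin Krt19 were at background on all 6 arrays. Of 11 adipocyte markers on the array, 4 were measured, with a median log2 difference of 0.25 and none called. Their summed intensity above background was 6590 to 9264 in wild type and 7696 to 18062 in knockout, which overlapped. For the 4 of 16 exocrine pancreas markers measured, the sums were 12321 to 14145 and 11650 to 12866. The keratin gene Krt7 was above background on knockout array 2 alone (128 against a threshold of 123). Of the 4 probes of Xist, which is expressed in females, 3 were at background on all 6 arrays and 1 exceeded it on knockout array 1 alone (137 against 122), and the labels give every liver as male.

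Knockout arrays 1 and 3 stood apart from the rest, each in its own way. The SD of their deviations from the group mean was 0.267 and 0.285 on the log2 scale, against 0.195 to 0.199 on the other 4 arrays. Knockout array 3 exceeded the next-highest array by more than 1 log2 unit at 91 probes and lay that far below the next-lowest at 11 probes. For knockout array 1 these numbers were 9 and 2, for knockout array 2 they were 1 and 0, and no wild-type array had more than 4 in total. The first principal component, with 38.8% of the variance, put knockout array 3 at 39.3 and the other 5 arrays between -14.8 and 7.8. The wild-type arrays lay close together.

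The 9 probes that were highest on knockout array 1 by that margin belong to 8 genes (Lcn2, Saa1, Saa2, Saa3, Mt2, Nnmt, Cyp2b9 and Ppl), of which 5 are in the list of acute phase genes. Lcn2, which encodes the iron-siderophore-binding protein lipocalin-2, read 3697 there and 186 to 613 on the other 5 arrays. The serum amyloid gene Saa2 read 711 against 132 to 231, and the metallothionein gene Mt2 read 713 against 179.8 to 362. Wild-type array 1 was the highest of the wild-type arrays for Lcn2, at 613 against 302 and 301, and for the brighter Saa1 probe, at 14073 against 3864 and 4758. Knockout array 3 was set apart by a different set, including Hspd1, the mitochondrial chaperonin. An Hspd1 probe read 2063 on that array and 441 to 780.0 on the others. The translation factor gene Eif4g2 read 516 against 154 to 238.

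**Figure D1:**
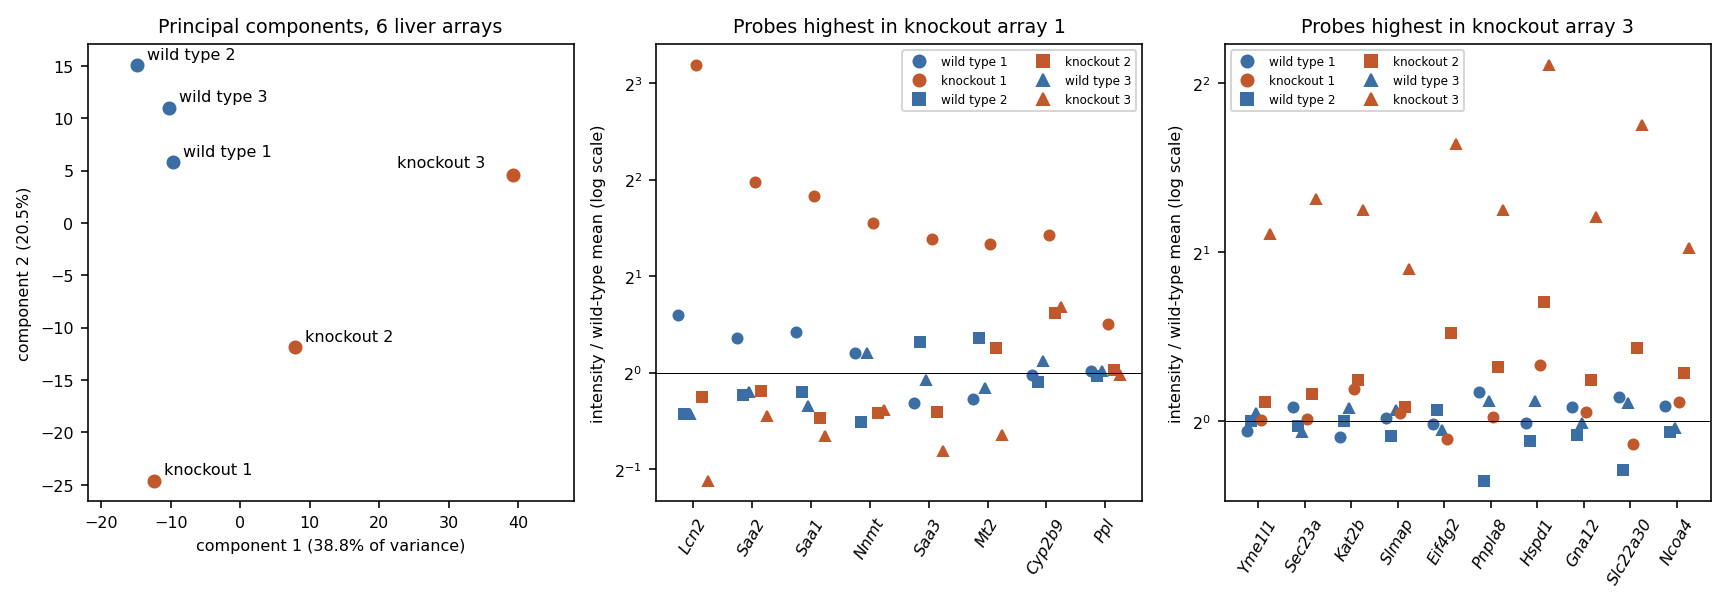
Left, the 6 liver arrays on the first pair of principal components of the log2 values, wild type in blue and knockout in orange. Middle and right, intensity divided by the wild-type mean (log scale) for genes whose probe exceeded every other array by over 1 log2 unit on knockout array 1 (all 8 genes) and on knockout array 3 (10 genes with the widest gaps). Knockout array 3 lies at 39.3 on the first component, and Lcn2 on knockout array 1 reads far above the other 5 arrays.

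Cav1 itself was lower in knockout liver. Its single probe, on a chromosome 6 gene, read 172, 167 and 210.4 on the 3 wild-type arrays and 110.2, 117 and 113 on the 3 knockout arrays, a mean of 183 ± 23.8 against 114 ± 3.6 (SD, n = 3 each). The groups did not overlap, and the knockout readings were below background on 3 of 3 arrays. The probe entered the comparison through its wild-type readings. The fitted log2 difference was -1.80 (SE 0.23, limma adjusted p = 0.0247), and against the background threshold the fall was at least 2.89-fold with this background correction. The fall of Cav1 in liver depended in size on that correction: the log2 difference was -0.96 with an offset of 50 and -0.68 with none, both past the threshold (adjusted p = 0.0369 and 0.0366). The adjusted p missed the threshold when wild-type array 1 (0.0603), wild-type array 2 (0.0838), wild-type array 3 (0.112) or knockout array 2 (0.101) was left out.

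The other measured caveola genes did not pass the test. Of the 12 on the array, 7 were measured, 1 of them (Cav1) was called, and both Cav2 probes lay below the filter. Cavin2, which encodes the cavin called SDPR, read 308, 351 and 317 in wild type and 319, 312 and 363 in knockout, a log2 difference of 0.03 (SE 0.16, adjusted p = 0.966). Cavin1, the cavin required for caveola formation, read 145, 129.7 and 114 in wild type and 150.0, 145 and 139 in knockout, with a log2 difference of 0.51 (SE 0.27, adjusted p = 0.55). Their groups overlapped. Cavin3 at -0.04, Ehd4 at -0.06 and Pacsin2 at -0.17 also overlapped between genotypes. The 3 Pacsin3 probes gave log2 differences of -0.27, -0.40 and 0.52, so they did not share a direction.

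Across the liver transcriptome, 10 of 13324 probes (0.0751%) passed an adjusted p under 0.05 in the limma comparison, each from a different gene. Transcripts of Wdr92, Lyz2, Acnat2, Hp, Cyp2b23 and Cyp2b9 were higher in knockout, at 0.045% of probes, and those of Cav1, Kcnk5, Hes6 and Rpa3 were lower, at 0.03%. An unadjusted p under 0.05 was reached by 1321 probes (9.91%), 732 probes higher (5.49%) and 589 lower (4.42%) in knockout. Knockout readings lay entirely above wild type for 6.78% of probes and entirely below for 8.62%. The median log2 difference over all probes was -0.02. Changes of 2-fold or more were few, at 36 probes higher and 8 lower, and 7 of the 10 called probes were among them.

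**Figure D2:**
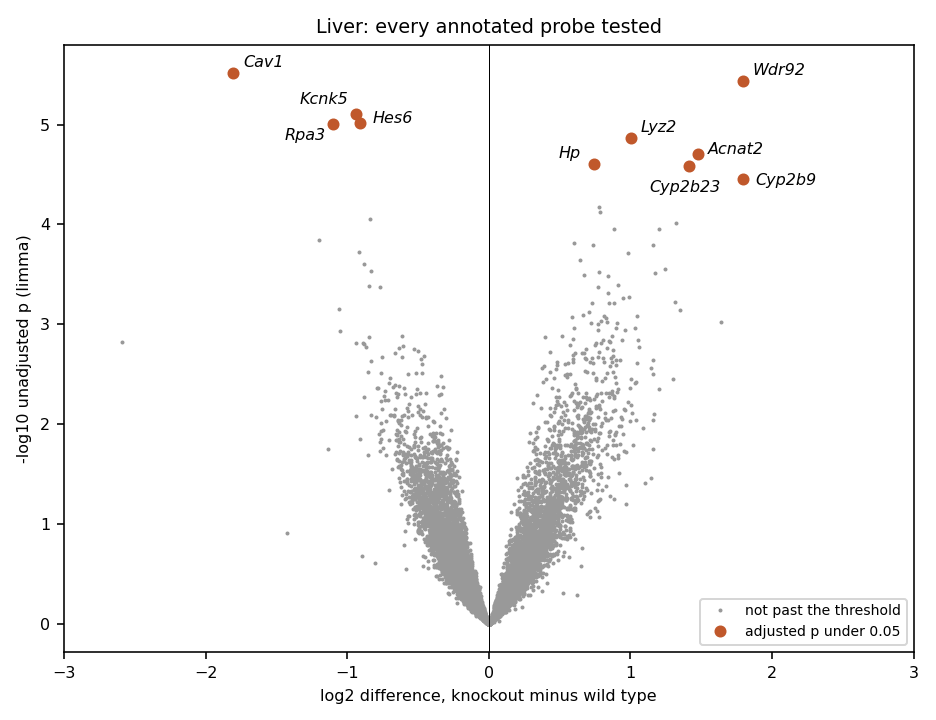
Log2 difference between knockout and wild-type liver (x axis) against -log10 of the unadjusted limma p (y axis) for the 13324 probes compared. The 10 probes with an adjusted p under 0.05 are orange and named, 6 higher and 4 lower in knockout, and the rest are grey.

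The number of calls rested on single arrays. It was 10 with all 6 arrays, 2 without wild-type array 1, 1 without wild-type array 2, 1 without wild-type array 3 and 0 without knockout array 2, where 999 probes still had an unadjusted p under 0.05. It was 236 without knockout array 1 and 36 without knockout array 3, and both of these sets held all 10 probes. The log2 differences moved less. For Wdr92 they ran from 1.61 to 2.02 with 1 array left out, for Kcnk5 from -1.04 to -0.88 and for Lyz2 from 0.90 to 1.09. Each of the 10 probes passed in 2 or 3 of the 6 comparisons with an array left out, and the highest adjusted p among them was 0.567, for Cyp2b9.

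**Figure D3:**
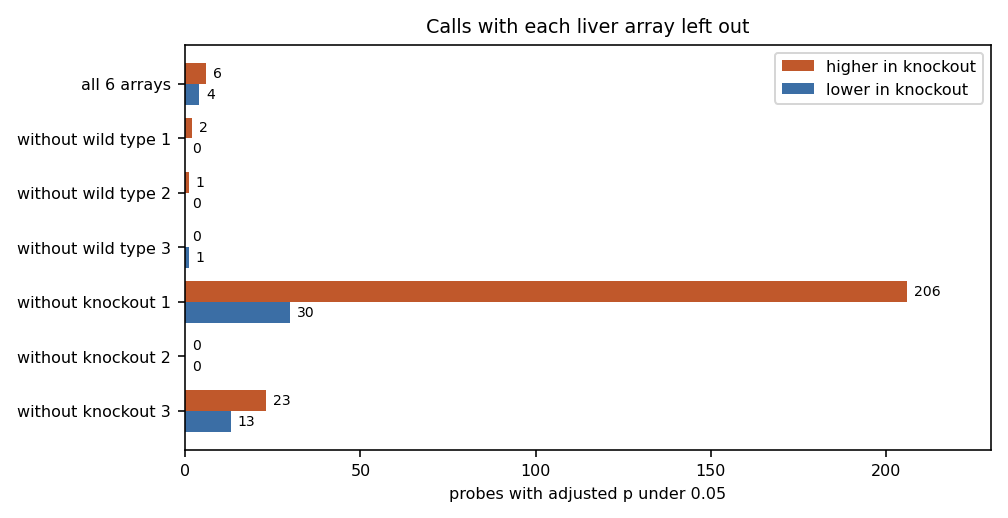
Number of probes with an adjusted p under 0.05 (x axis) in liver with all 6 arrays and with each array left out (y axis), higher in knockout in orange and lower in blue. Leaving out knockout array 1 gave 206 higher and 30 lower, and leaving out knockout array 2 gave 0.

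Cyp2b9 and Cyp2b23, drug- and steroid-metabolising cytochromes of the Cyp2b subfamily, were each higher in knockout liver by 1 probe, and a further member, Cyp2b10, did not pass. Cyp2b9, which mouse liver expresses mainly in females, read 141, 134 and 155 in wild type and 384, 219.9 and 230.1 in knockout. The groups did not overlap, and knockout array 1 was the highest. The log2 difference was 1.80 (SE 0.29, adjusted p = 0.0465), and 1.41 without knockout array 1. Its neighbour Cyp2b23 read 122, 105 and 104 in wild type and 161, 156 and 156 in knockout, a log2 difference of 1.42 (SE 0.23, adjusted p = 0.0381). Its readings exceeded background on 1 of 3 wild-type and 3 of 3 knockout arrays, and a second Cyp2b23 probe stayed under the filter at 93.2 to 112.2. Without background correction neither gene passed, with adjusted p of 0.122 for Cyp2b9 and 0.0544 for Cyp2b23. Cyp2b10, the family member best known for induction by phenobarbital, read 159, 214 and 183 against 204, 257 and 205, with overlapping groups and a log2 difference of 0.50 (SE 0.25, adjusted p = 0.523). Since these genes are close copies of each other, a probe may bind the transcript of more than 1 of them.

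The sequences upstream of the 3 Cyp2b genes are shown because 2 of the genes rose together and because they display how alike these copies are. They are the 250 bases before each start in RefSeq (GRCm38.p6), read 5′ to 3′ on the gene's strand, at chr7:26173159-26173408 (plus strand) for Cyp2b9, chr7:26686431-26686680 (minus strand) for Cyp2b23 and chr7:25897408-25897657 (plus strand) for Cyp2b10. Capitals mark the match to the C/EBP motif TTGCNNAA, sought on both strands.
Cyp2b9: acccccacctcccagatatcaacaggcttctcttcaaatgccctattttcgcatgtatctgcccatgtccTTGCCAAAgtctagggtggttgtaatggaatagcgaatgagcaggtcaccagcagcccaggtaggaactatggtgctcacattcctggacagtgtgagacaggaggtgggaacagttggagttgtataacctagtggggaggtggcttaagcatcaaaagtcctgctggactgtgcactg
Cyp2b23: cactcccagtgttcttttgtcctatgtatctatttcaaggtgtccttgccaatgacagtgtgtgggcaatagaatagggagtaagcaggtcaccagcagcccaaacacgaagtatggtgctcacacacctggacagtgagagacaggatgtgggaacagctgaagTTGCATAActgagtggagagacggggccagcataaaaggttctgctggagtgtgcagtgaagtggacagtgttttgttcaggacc
Cyp2b10: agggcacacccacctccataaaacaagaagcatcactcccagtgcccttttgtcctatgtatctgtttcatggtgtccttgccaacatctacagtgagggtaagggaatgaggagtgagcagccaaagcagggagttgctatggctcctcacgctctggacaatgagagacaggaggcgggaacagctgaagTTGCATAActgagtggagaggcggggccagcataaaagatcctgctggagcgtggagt
Each held 1 match, at position 71 in Cyp2b9, 166 in Cyp2b23 and 193 in Cyp2b10, and 9.56% of 32851 mouse promoters of that length held at least 1. The STAT motif TTCNNNGAA, sought likewise and found in 7.02% of promoters, was not in these windows. A match is a description of the letters, not evidence of binding. Over aligned bases, Cyp2b9 and Cyp2b23 were 77.7% identical, Cyp2b10 and Cyp2b23 85.3%, and Cyp2b10 and Cyp2b9 75.8%. These shares leave out gaps, of which there were 52, 78 and 20 in the same order. The identical bases were 174, 180 and 182, so the pairs differed less by that count.

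The wider P450 and conjugating families held few calls. Of 33 measured members of families 1 to 3, 2 were called, both higher, against 0.0751% of all probes. Their median log2 difference was 0.03. Cyp3a11, a major drug-oxidising enzyme of mouse liver, read 2574, 2804 and 2406 in wild type and 3507, 3673 and 6724 in knockout, with groups that did not overlap, a log2 difference of 0.79 and an adjusted p of 0.266. Cyp2d12 read 252 to 303 in wild type and 204 to 243 in knockout (log2 difference -0.53, adjusted p = 0.426). Among 36 conjugating enzymes none was called and the median was 0.01. An unadjusted p under 0.05 was reached by 4 higher and 5 lower, against 5.49% and 4.42% of all probes. The bilirubin-conjugating Ugt1a1 (log2 difference 0.79) and Ugt1a9 (log2 difference 0.89) had their highest readings on knockout array 3, at 843 and 1952.

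**Figure D4:**
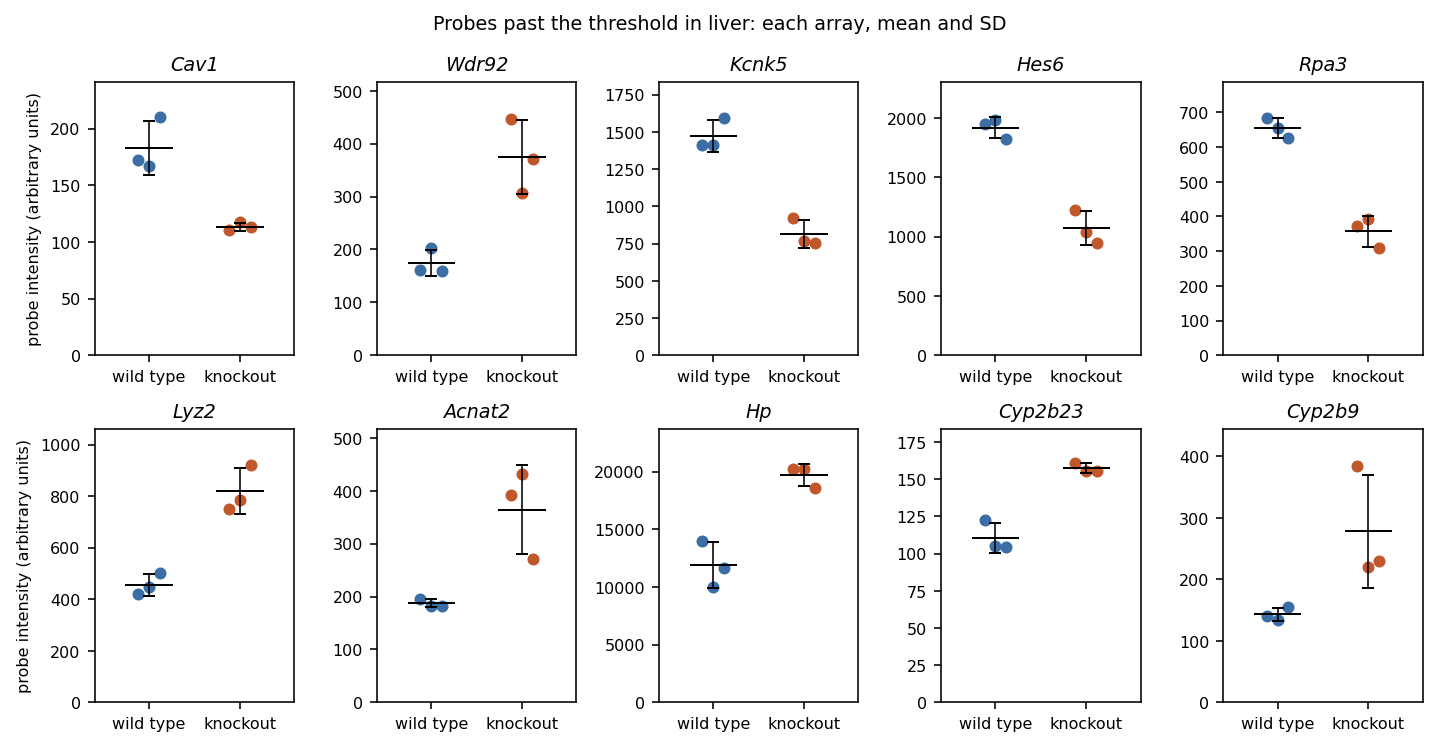
Probe intensity (y axis, linear from 0) of the 10 probes past the threshold on each liver array, wild type in blue and knockout in orange, with the mean (line) and SD (bar) of 3 arrays. In every panel the 3 knockout readings lie entirely above or entirely below the 3 wild-type readings.

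Genes with a known sex bias in mouse liver lay on opposite sides of 0 by median, and all but Cyp2b9 missed the threshold. Pulsatile growth hormone signalling through STAT5 in males keeps these programmes apart. Of 16 measured male-biased genes, 15 had a log2 difference below 0 and the median was -0.20, beside -0.02 for all probes. None was called, 4 reached an unadjusted p under 0.05 lower, where 4.42% of probes did, and 0 did so higher. Cyp4a12b, a fatty acid omega-hydroxylase of male liver, read 432, 587 and 534 in wild type and 308, 306 and 372 in knockout. The groups did not overlap, with a log2 difference of -0.84 (SE 0.18, adjusted p = 0.166). The fatty acid elongase Elovl3 read 219 to 239 in wild type and 177 to 199 in knockout (log2 difference -0.52, adjusted p = 0.424), and the pheromone-binding Mup20 overlapped between groups (log2 difference -0.25, adjusted p = 0.486).

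Among female-biased genes, 10 of 23 on the array were measured and 1 was called (Cyp2b9), where 0.045% of probes were called higher. An unadjusted p under 0.05 was reached by 2 higher, where 5.49% of probes did, and by 0 lower, and the median was 0.24. It was 0.08 without knockout array 3. Nipal1 (log2 difference 0.82) and A1bg (log2 difference -0.49) overlapped between groups, and A1bg was above background on 1 of 3 knockout arrays. In the growth hormone list of 9 measured genes none was called and 1 reached an unadjusted p under 0.05. That was Socs2, a STAT5 target that feeds back on the receptor, which read 637, 595 and 711 in wild type and 1007, 917 and 1132 in knockout. Its groups did not overlap, with a log2 difference of 0.74 (SE 0.14, adjusted p = 0.107). Cish, another such target, overlapped (log2 difference 0.44, adjusted p = 0.522), and Igf1 was at -0.11 (adjusted p = 0.785).

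Acnat2, which encodes an N-acyltransferase of the bile acid-conjugating family, was higher in knockout. It read 196, 183 and 183 in wild type and 392, 431 and 270.2 in knockout, where array 3 was the lowest but still above every wild-type reading. The log2 difference was 1.48 (SE 0.23, adjusted p = 0.0377). A second Acnat2 probe stayed under the filter, at 103 to 169. Without background correction the adjusted p of the called Acnat2 probe was 0.0583. The other 11 acyltransferase and thioesterase genes in its list were not called, and the list's median was -0.00. Of 20 measured bile acid genes none was called. Cyp7a1, the rate-limiting enzyme of bile acid synthesis, read 7294, 6164 and 8019.8 in wild type and 4009, 5388 and 7606 in knockout, and its groups overlapped (log2 difference -0.38, adjusted p = 0.519). The sterol transporter gene Abcg8 read 3121 to 3199 in wild type and 2398 to 2859 in knockout (log2 difference -0.28, adjusted p = 0.453).

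Lipid-oxidising genes showed no call and medians near that of all probes. Among 18 mitochondrial beta-oxidation genes the median was 0.03, with 2 at an unadjusted p under 0.05 higher and 0 lower. Acaa2, the last enzyme of the cycle, overlapped between groups and was highest on knockout array 3, at 9847 (log2 difference 0.63, adjusted p = 0.357). The peroxisomal list of 16 had 4 higher and 2 lower at that level, and the PPAR alpha target list of 16 had 3 higher and 1 lower. Of all probes, 5.49% were higher and 4.42% lower at that level. Ehhadh, the peroxisomal bifunctional enzyme, read 349, 348 and 361 in wild type and 406, 459 and 547 in knockout, with no overlap (log2 difference 0.52, adjusted p = 0.373). Both probes of Decr2, a peroxisomal reductase of unsaturated fatty acids, were higher in knockout, with log2 differences of 0.81 and 0.56 and adjusted p of 0.232 and 0.378. Acaa1b, a peroxisomal thiolase, lay lower, at 22473 to 23137 in wild type and 17302 to 20084 in knockout (log2 difference -0.27, adjusted p = 0.4).

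Lipid synthesis and storage genes were also without a call. Over all probes, an unadjusted p under 0.05 was reached by 5.49% higher and 4.42% lower. Of 17 cholesterol synthesis genes, 14 had a log2 difference below 0 and the median was -0.20, but an unadjusted p under 0.05 was reached by 1 higher (Cyp51, 0.52) and 1 lower (Dhcr7, -0.38). In the fatty acid synthesis list of 14, 3 were lower at that level, among them Acly, which makes cytosolic acetyl-CoA and read 3418 to 4234 in wild type and 2448 to 3263 in knockout (log2 difference -0.38, adjusted p = 0.402). Another was Mlxipl, the carbohydrate response factor ChREBP (log2 difference -0.26, adjusted p = 0.489). Among 20 triglyceride and lipid droplet genes 4 were higher and 2 lower at an unadjusted p under 0.05. The droplet coat gene Plin2 read 974 to 1098 in wild type and 1119 to 1447 in knockout (log2 difference 0.33, adjusted p = 0.46), and Fitm1, which helps bud droplets, read 252 to 287 and 179 to 237 (log2 difference -0.64, adjusted p = 0.377). The acyl-CoA-binding gene Dbi read 40834, 36836 and 32896 in wild type and 31160, 30402 and 27897 in knockout, without overlap (log2 difference -0.30, adjusted p = 0.374).

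Haptoglobin, the hemoglobin-scavenging acute phase protein, was higher in knockout by 1 of its 3 probes. The called Hp probe read 14014, 10004 and 11661 in wild type and 20232, 20232 and 18592 in knockout, a log2 difference of 0.74 (SE 0.12, adjusted p = 0.0381). A second Hp probe read 10741, 7437 and 7157 in wild type and 14266, 14544 and 13745 in knockout and gave a log2 difference of 0.78 (adjusted p = 0.0819), also without overlap. The other Hp probe overlapped, at 24235 to 29755 in wild type and 26575 to 31891 in knockout, and gave a log2 difference of 0.11 (adjusted p = 0.772). The probes of Hp therefore disagreed in size, and averaging them gave an adjusted p of 0.149.

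The list of acute phase genes held no call, with each gene taken by its probe of highest mean. The Hp probe of highest mean is the uncalled one with a log2 difference of 0.11. Of 28 measured, 2 reached an unadjusted p under 0.05 higher and 0 lower, against 5.49% and 4.42% of all probes. A log2 difference above 0 was seen in 21, and the median was 0.07. That median was -0.05 without knockout array 1, the array with the high Lcn2 and Saa2 readings, and 0.17 without knockout array 3. Hamp2, a relative of the iron hormone hepcidin, read 465, 396 and 411 in wild type and 815, 886 and 482 in knockout, without overlap (log2 difference 0.88, adjusted p = 0.27). Serum amyloid P (Apcs) overlapped between groups and was highest on knockout array 1, at 2591 (log2 difference 0.40, adjusted p = 0.496). Fgl1, a hepatocyte-secreted fibrinogen-like protein, was higher by both measured probes (log2 difference 0.77 and 0.57, adjusted p = 0.254 and 0.338). The highest reading again came from knockout array 1, where the first probe read 13833 against 8094 and 7818 on the other knockout arrays.

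Lyz2, the lysozyme of macrophages and other myeloid cells, was higher in knockout. It read 419, 447 and 501 in wild type and 751, 785 and 922 in knockout. The groups did not overlap, and the log2 difference was 1.00 (SE 0.15, adjusted p = 0.0302). A second Lyz2 probe overlapped, at 208 to 237 in wild type and 237 to 256 in knockout (log2 difference 0.24, adjusted p = 0.688), and another stayed under the filter. The neighbouring lysozyme gene Lyz1, close enough in sequence that probes may not separate the pair, read 2346, 2720.2 and 2432 in wild type and 3548, 3073 and 3002 in knockout (log2 difference 0.37, adjusted p = 0.363).

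Most other macrophage and Kupffer cell markers had small positive differences that did not pass the test. Of 27 on the array 23 were measured, 19 had a log2 difference above 0, and the median was 0.16. Lyz2 was the single call, 3 in all reached an unadjusted p under 0.05 higher against 5.49% of probes, and 6 had knockout readings entirely above wild type against 6.78%. The summed intensity of the list above background was 16462 to 18008 in wild type and 17729 to 20140 in knockout, which overlapped. Vsig4, a Kupffer cell complement receptor, read 1182 to 1317 in wild type and 1425 to 1614 in knockout (log2 difference 0.26, adjusted p = 0.505). Clec4f, the lectin specific to Kupffer cells in mouse, overlapped (log2 difference 0.16). In bulk tissue, more cells of a type and more RNA per cell cannot be told apart, and their part in the Lyz2 difference was not tested.

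Kcnk5, which encodes an acid-sensitive background potassium channel, was lower in knockout. Its called probe read 1414, 1409.5 and 1596 in wild type and 919, 771 and 754 in knockout, a log2 difference of -0.94 (SE 0.13, adjusted p = 0.0262). A second Kcnk5 probe read 326, 344 and 381 in wild type and 289.5, 271 and 203 in knockout (log2 difference -0.71, SE 0.22, unadjusted p = 0.0057, adjusted p = 0.349). Neither probe's groups overlapped. Another Kcnk5 probe stayed under the filter, at 106 to 121, and averaging the measured Kcnk5 probes gave a limma adjusted p of 0.127. Among the 4 genes called lower, Cav1 and Rpa3 had 1 probe each on the array, so only Hes6 could be compared with Kcnk5. The other probes of Hes6 had an unadjusted limma p of 0.488 and 0.871. The other 9 measured channel genes were not called. The water channel gene Aqp1 read 3007, 2578 and 2630.2 in wild type and 3443, 3149 and 3683 in knockout (log2 difference 0.33, adjusted p = 0.4).

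Hes6, a basic helix-loop-helix factor that opposes the Notch effector Hes1, was lower in knockout by 1 of its 3 probes. The called probe read 1947, 1986 and 1821 in wild type and 1228, 1043 and 944 in knockout, without overlap (log2 difference -0.91, SE 0.13, adjusted p = 0.0262). The other probes of Hes6 read 327 to 385 and 221 to 287 in wild type against 287 to 392 and 225 to 274 in knockout. They gave a log2 difference of -0.13 and -0.03 with adjusted p of 0.854 and 0.974, so the fall of Hes6 was seen by a single probe. Among 8 other Notch pathway genes none was called. Hey1 read 108 to 116 in wild type, below background on all 3 arrays, and 128 to 132 in knockout, so it was measured through knockout alone. It was at least 1.22-fold higher there with this background correction, on the side that the filter favoured (adjusted p = 0.424). Hes1 overlapped (log2 difference 0.43).

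Rpa3, which encodes the smallest subunit of replication protein A, was lower in knockout. Its only probe read 685, 655 and 626 in wild type and 371, 394 and 308 in knockout, without overlap (log2 difference -1.10, SE 0.16, adjusted p = 0.0262). The partner subunits overlapped between groups, with log2 differences of 0.11 for Rpa1 and 0.26 for Rpa2, and none of the 12 other replication genes measured was called. Rpa3 lies on chromosome 6, as does Cav1. Of 14 measured cell cycle genes none was called, and the cyclin gene Ccnd1 read 2380.2 to 3091 in wild type and 1792 to 2370.2 in knockout (log2 difference -0.32, adjusted p = 0.489).

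Wdr92, a WD-repeat protein of the dynein arm assembly machinery, was higher in knockout by 1 of 2 probes. The called probe read 162, 203 and 159.7 in wild type and 447, 307 and 370.2 in knockout (log2 difference 1.79, SE 0.24, adjusted p = 0.0247). These groups did not overlap. The second Wdr92 probe read 142, 145 and 141 in wild type and 123, 145 and 138 in knockout and gave a log2 difference of -0.27 (adjusted p = 0.749), the opposite sign.

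**Figure D5:**
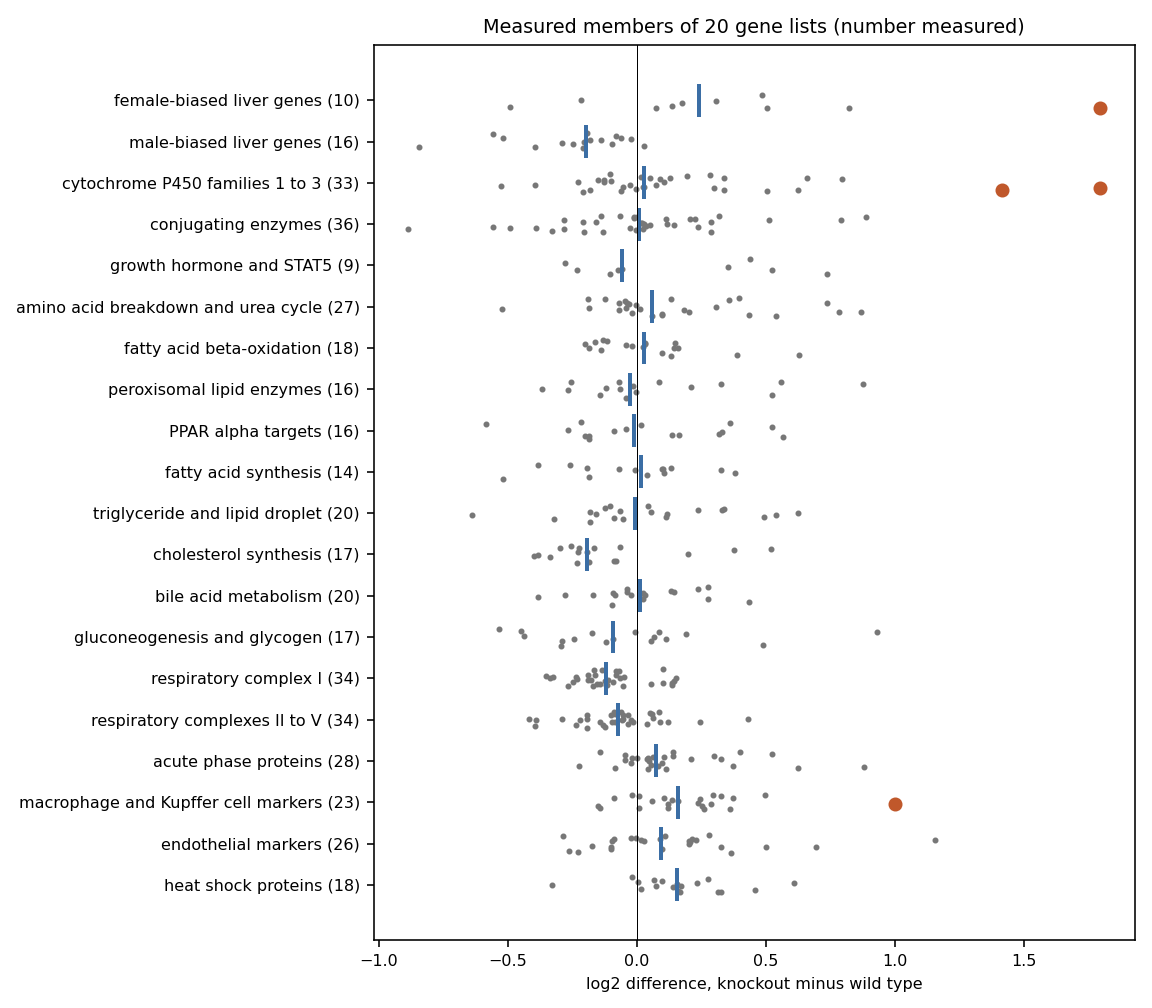
Log2 difference between knockout and wild-type liver (x axis) of each measured gene in 20 lists (rows, number measured in brackets), each gene by its probe of highest mean. Genes called by that probe are orange, the others grey, and the blue bar is the list's median, which lies at 0.24 for female-biased and -0.20 for male-biased genes.

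Several urea cycle and amino acid genes ranked high outside the called set. Of 27 measured, none was called, 8 reached an unadjusted p under 0.05 higher and 0 lower, where 5.49% and 4.42% of probes did, and the list's median was 0.06. Argininosuccinate lyase (Asl), the urea cycle step that releases arginine, read 1050.4, 993 and 1063 in wild type and 1422, 1842 and 1933 in knockout by its first probe. The second probe of Asl read 609.7, 565 and 678 against 811, 1054 and 1136. Neither overlapped, with log2 differences of 0.78 and 0.78 and adjusted p of 0.084 and 0.145.

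Cps1, which starts the cycle in mitochondria, read 7902, 8195 and 7947 in wild type and 10152, 12788 and 13673 in knockout by 1 probe (log2 difference 0.60, adjusted p = 0.107), and its other probe gave a log2 difference of 0.36 (adjusted p = 0.455) with overlap. Nags, which makes the activator of Cps1, read 165, 172 and 179 in wild type and 201, 255 and 264 in knockout (log2 difference 0.87, adjusted p = 0.266). All 3 wild-type readings of Nags lay under all 3 knockout readings. The ornithine aminotransferase gene Oat read 6128 to 6875 in wild type and 8019.8 to 8803 in knockout (log2 difference 0.40, adjusted p = 0.266). Bhmt, which remethylates homocysteine, gave a log2 difference of 0.54 (adjusted p = 0.273). None of these genes passed the threshold.

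Csad was lower in knockout by both of its probes, short of the threshold. The enzyme it encodes, which decarboxylates cysteine sulfinic acid, makes the precursor of taurine. The first Csad probe read 562, 541 and 427 in wild type and 294, 353 and 292 in knockout (log2 difference -0.92, SE 0.18, adjusted p = 0.118). Its second probe read 974, 1198 and 564 in wild type and 476, 436 and 479 in knockout (log2 difference -1.06, adjusted p = 0.22). Neither probe overlapped between groups, and neither passed. Wild-type array 3 gave the lowest wild-type reading in both.

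Csad and Asl belong to 12 genes with at least 2 measured probes that all had an unadjusted p under 0.01 in the same direction. There were 3094 genes with 2 or more measured probes, whatever their p. By single probes, 2.57% had an unadjusted p under 0.01. Transcripts of 7 of these genes (Asl, Decr2, Dusp6, Fgl1, Lhpp, Upk3b and Vnn3) were higher in knockout and of 5 (Cryl1, Csad, Dct, Kcnk5 and Tpmt) lower. Kcnk5 alone among them had a probe past the threshold. Tpmt, the thiopurine methyltransferase, had 3 probes with log2 differences of -0.89, -2.59 and -0.70 and adjusted p of 0.266, 0.266 and 0.306. The most changed Tpmt probe read 2017, 1569 and 1682 in wild type and 151.8, 969.6 and 491.8 in knockout, with knockout array 1 far the lowest. Its log2 difference was -1.48 without knockout array 1, where the adjusted p was 0.0056, and -3.43 without knockout array 2 (adjusted p = 0.121).

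Cryl1, a gulonate dehydrogenase of the uronate pathway, read 320.2, 284 and 323 in wild type and 195, 216 and 220.1 in knockout (log2 difference -0.88, adjusted p = 0.137), and its second probe gave a log2 difference of -0.49. Dct, best known as the melanin pathway enzyme dopachrome tautomerase, read 503, 796 and 782 in wild type and 384, 392 and 281 in knockout (log2 difference -1.20, adjusted p = 0.107). Its second probe overlapped between groups and gave a log2 difference of -0.94. Among those higher, the pantetheinase gene Vnn3 read 352, 302 and 326 in wild type and 457, 492 and 442 in knockout (log2 difference 0.67, adjusted p = 0.232), and its second probe gave a log2 difference of 0.51. The phosphatase gene Lhpp had log2 differences of 0.67 and 0.53, and the ERK phosphatase gene Dusp6 had 0.46 and 0.67. The groups did not overlap for either probe of Vnn3, Lhpp or Dusp6.

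The remaining highest-ranked probes short of the threshold were of genes with varied roles. Igfbp6, which binds insulin-like growth factor II, read 112, 104 and 127 in wild type, 1 of 3 above background, and 160.2, 151 and 162 in knockout (log2 difference 1.32, adjusted p = 0.0926). Slc29a1, an equilibrative nucleoside transporter, read 278, 237 and 269.9 and 399, 391 and 420.5 (log2 difference 0.89, adjusted p = 0.0934), while its second probe gave a log2 difference of -0.02. Ppp1r9a, the actin-binding neurabin of chromosome 6, gave a log2 difference of 1.20 (adjusted p = 0.0934), and Kctd12, above background on 1 of 3 wild-type and 3 of 3 knockout arrays, gave a log2 difference of 1.16 (adjusted p = 0.107). On the lower side, Pdilt, a disulfide isomerase relative first described in testis, read 674, 658 and 661 in wild type and 392, 379.6 and 474 in knockout (log2 difference -0.84, adjusted p = 0.0911). The Golgi matrix gene Golga2 gave a log2 difference of -0.84 by 1 probe (adjusted p = 0.145) and -0.46, -0.21 and -0.17 by 3 others, and the small GTPase gene Arf2 gave a log2 difference of -0.77 (adjusted p = 0.166). None of these groups overlapped by the first-named probe.

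Respiratory chain genes had median differences slightly below 0, without a call, and were lowest by median level on knockout array 3. Of 34 measured complex I genes, 27 had a log2 difference below 0 and the median was -0.12, beside -0.02 for all probes. At an unadjusted p under 0.05, 5 were lower and 0 higher, against 4.42% and 5.49% of all probes, and none was called. The size depended on the array, since the median was -0.03 without knockout array 3 and -0.22 without knockout array 1. The median log2 level of these genes was 12.06 to 12.19 in wild type and 12.19, 12.13 and 11.91 on knockout arrays 1, 2 and 3. Ndufb8, an accessory subunit, read 9484, 10152 and 9605 in wild type and 7902, 8112 and 7389 in knockout, without overlap (log2 difference -0.33, adjusted p = 0.336). Complexes II to V had 25 of 34 below 0 and a median of -0.07, which was -0.03 without knockout array 3. On the other side, the ATP synthase stalk gene Atp5pb read 1873, 1819.6 and 1917 in wild type and 2304, 2686 and 2496 in knockout (log2 difference 0.43, adjusted p = 0.27).

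Glucose metabolism genes were not called. Over all probes, 5.49% were higher and 4.42% lower at an unadjusted p under 0.05. Among 17 gluconeogenic and glycogen genes the median was -0.09, with 1 at an unadjusted p under 0.05 higher and 0 lower. Pck1, the gluconeogenic control enzyme, read 752, 890.1 and 801 in wild type and 723, 599.8 and 724 in knockout (log2 difference -0.29, adjusted p = 0.523). Gys2, the liver glycogen synthase, overlapped between groups and was highest on knockout array 3, at 1763 (log2 difference 0.93, adjusted p = 0.39). Of 18 glycolysis and glucose uptake genes 3 were lower and 1 higher at that level, and Aldoa read 638 to 751 in wild type and 426 to 612 in knockout (log2 difference -0.42, adjusted p = 0.467). The insulin signalling list of 15 had 0 at an unadjusted p under 0.05.

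Endothelial cells are rich in caveolae, and their markers were not called. Of 28 on the array 26 were measured, with a median of 0.09. At an unadjusted p under 0.05, 4 were higher and 0 lower, against 5.49% and 4.42% of all probes. Their summed intensity above background was 11520 to 12259 in wild type and 12592 to 15098 in knockout, highest on knockout array 1. Lyve1, a hyaluronan receptor of sinusoidal endothelium, read 112, 122 and 146 in wild type, 1 of 3 above background, and 149.6, 195 and 165 in knockout (log2 difference 1.16, adjusted p = 0.27). The junction protein gene Pecam1 read 159, 175 and 169 in wild type and 210.2, 227 and 205 in knockout (log2 difference 0.70, adjusted p = 0.29). The groups did not overlap for either. Clec4g, a sinusoidal lectin, gave a log2 difference of 0.28 (adjusted p = 0.46).

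Stromal and surface markers were mixed. The mesenchymal filament gene Vim read 161, 162 and 170.2 in wild type and 245, 208 and 231 in knockout, without overlap (log2 difference 0.91, adjusted p = 0.166), but the median of 16 stellate cell and fibroblast markers was -0.06. Reln, made by stellate cells, gave a log2 difference of 0.33, and the pericyte gene Rgs5 gave a log2 difference of -0.32 (adjusted p = 0.46 and 0.487). Upk3b, a uroplakin made by mesothelial cells, read 174, 134 and 139 in wild type and 214, 212 and 234 in knockout (log2 difference 1.24, adjusted p = 0.145), and its second probe gave a log2 difference of 1.03. The other 5 measured mesothelial markers overlapped between groups, and Msln was at background on all 6 arrays. Of 24 collagen and matrix genes, 3 were higher at an unadjusted p under 0.05 and 0 lower, against 5.49% and 4.42% of all probes. Fn1 was highest on knockout array 3, at 6498 (log2 difference 0.67, adjusted p = 0.426).

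Blood and immune markers gave no call beyond Lyz2. The calgranulin genes S100a8 and S100a9, abundant in neutrophils, gave log2 differences of -0.34 and -0.43, and Retnlg gave a log2 difference of -0.53 (adjusted p = 0.477, 0.486 and 0.504). Knockout readings lay under wild type in these 3, where 8.62% of all probes did so, and Retnlg was above background on 2 of 3 knockout arrays. The other measured member of that list, Lcn2, overlapped and gave a log2 difference of 0.63 (adjusted p = 0.86), with the high reading on knockout array 1 given above. The 4 lists of lymphocyte, erythroid and platelet, MHC class II and interferon-stimulated genes held 5, 8, 8 and 29 measured genes. Their medians were -0.03, 0.08, 0.25 and -0.03, and 1 of these genes, Psmb8, had an unadjusted p under 0.05 (log2 difference 0.53, adjusted p = 0.376).

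Several stress-responsive genes read highest on a single knockout array. The immediate early gene Egr1 read 1397, 756 and 1857 in wild type and 4737, 2737 and 1498 in knockout, with knockout array 1 the highest and an overlap on array 3 (log2 difference 1.17, adjusted p = 0.374). Fos read 165, 166 and 202 and 405, 255 and 170.2, in the same order (log2 difference 0.92, adjusted p = 0.461). Of 18 heat shock genes 16 had a log2 difference above 0, the median was 0.16 and none was called, with 1 at an unadjusted p under 0.05 (Hspd1). In the unfolded protein response list of 24, 4 were higher at that level and 0 lower, against 5.49% and 4.42% of all probes. The chaperone gene Calr read 667, 565 and 679 in wild type and 756, 944 and 864 in knockout (log2 difference 0.48, adjusted p = 0.352).

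Genes of the circadian clock vary with the time of day at which tissue is taken. Of 16 measured none was called and the median was -0.04. Dbp, a clock output gene with a steep daily rhythm in liver, read 6435, 6385 and 5787 in wild type and 6408, 5126 and 4604 in knockout, which overlapped (log2 difference -0.22, adjusted p = 0.581). Ciart, a repressor of the clock, read 568, 464 and 487 in wild type and 502, 308 and 213 in knockout, lowest on knockout array 3 (log2 difference -0.91, adjusted p = 0.417). Zonation markers of hepatocytes were not called either, with medians of -0.04 for 24 pericentral and 0.05 for 22 periportal genes.

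The remaining lists held no call. Median log2 differences were -0.09 for 4 ketogenic, -0.04 for 17 tricarboxylic acid cycle, -0.01 for 15 branched-chain amino acid, -0.01 for 38 complement and coagulation, -0.09 for 24 antioxidant and -0.04 for 39 ribosomal protein genes. Among these, Rps6 of the small ribosomal subunit read 6053, 5684 and 6068 in wild type and 7695, 8380.4 and 7017 in knockout (log2 difference 0.38, adjusted p = 0.285), and the branched-chain dehydrogenase gene Acad8 gave a log2 difference of 0.70 (adjusted p = 0.374). Of 19 apolipoprotein and lipoprotein assembly genes 14 lay above 0, with Apob at 0.40 and Apom at -0.25 on the log2 scale (adjusted p = 0.433 and 0.462). Few markers of bile ducts (5 of 11), adipocytes (4 of 11), exocrine pancreas (4 of 16), skeletal muscle (5 of 17) or intestine and kidney (1 of 13) were measured at all.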

How the data were processed

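The authors' deposited series table holds linear probe intensity values per array. The liver arrays were already quantile-normalized, judging from sorted liver values that differ by at most 0.461%. The lowest liver value was 84.0, so background did not appear to have been subtracted. Software and genome build are not given in the sources used here. Probes were named through the platform annotation (34885 with 1 symbol, 18 with several, 10378 with none). Symbols were updated by RefSeq GRCm38.p6, which matched 34807. A further 48 columns, named by chip position alone, had no match among the samples and were left out.

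Background came from 1528 olfactory, vomeronasal and trace amine receptor probes, standing in for negative controls. Intensities were corrected by normexp with an offset of 16 (limma 3.58.1, R 4.3.3) and taken to log2. A probe was above background over the 95th percentile of receptor probes on that array, and probes so on at least 3 of 6 liver arrays were compared. Genotypes were compared in limma (two-sided; lmFit, then eBayes with a trend on intensity). A call was a Benjamini-Hochberg adjusted p under 0.05 over all probes. The fit was tested on simulated data. In 56 lists, each gene stood by its probe of highest mean, and lists were described without a test. A fold against a group below background throughout is a bound, against the higher of each array's threshold and signal. The number of arrays limits the precision.

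Named were Cav1 and the caveola genes, every called probe, the 8 next-ranked probes in each direction, genes with 2 or more probes all at an unadjusted p under 0.01 in 1 direction, other probes of these genes, and up to 4 list members of lowest p. Tissue checks, genes read for single arrays, Clec4f, Aass, Igf1 and Rpa1 were chosen after their values were seen. Members and lists were chosen with earlier results of these data known, and the channel, Notch, replication and acyltransferase lists hold genes named for those results. Replicate numbers 1 to 3 recur in both groups, but deviations of same-numbered arrays correlated at -0.011, -0.028 and 0.024, so samples were not paired. The alternatives were the background correction, the filter, 1 probe or the mean per gene, the variance model, array weights, a replicate block and each array left out.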

Additional observations from a re-analysis of the deposited data

Results flagged for a closer look

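Of the 10 probes called in liver, 7 were measured in both tissues. For 6 of them the knockout difference in liver differed from that in gonadal adipose tissue (GWAT) as labelled. This was judged by the tissue-by-genotype term of limma on all 12 arrays, adjusted over 12462 probes. The 7 probes were chosen for their difference on these same liver arrays, so a difference between tissues was favoured in advance. The share of all 12462 probes that passed was not counted, so no result is read from 6 of 7, with either labelling. Cav1 differed by -9.67 on the log2 scale (liver minus GWAT, adjusted p = 7.73e-15), because the arrays labelled knockout in GWAT read higher for Cav1 than those labelled wild type, by 7.87, which goes against the labels there. Directions in GWAT therefore rest on labels that its own Cav1 readings contradict. The differences were -1.68 for Rpa3 (adjusted p = 4.73e-05), 1.21 for Lyz2 (2.59e-04), 1.78 for Wdr92 (9.59e-04), -0.96 for Kcnk5 (0.00488) and 0.59 for Hp (0.0294). GWAT differences as labelled were near 0 for Wdr92 (0.01) and Kcnk5 (0.02). Hes6 differed by -0.59 without passing (adjusted p = 0.0659). With the GWAT labels turned, an alternative chosen after seeing the data, 6 of the 7 again passed, 5 of them in common. Rpa3 no longer passed (-0.52, adjusted p = 0.0887), Hes6 did (-1.23, 0.00116), and Cav1 differed by 6.06 in the other direction (2.3e-11). The others were 1.81 for Wdr92, -0.92 for Kcnk5, 0.79 for Lyz2 and 0.90 for Hp (adjusted p = 0.00116, 0.00679, 0.00635 and 0.00267). The tissues were normalized separately, and the mice were aged 12 weeks for liver and 8 weeks for GWAT. Tissue and age therefore cannot be told apart in these differences.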

How the results depend on the processing

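Against 10 calls (6 higher, 4 lower), there were 7 without background correction (3 higher) and 16 without the filter (11 higher). With probes averaged per gene there were 4 (2 higher, 2 lower). These were Cav1, Rpa3, Acnat2 and Cyp2b23, each with 1 measured probe. Every called gene with more than 1 measured probe then missed the threshold, and so did Cyp2b9 with its 1 measured probe (limma adjusted p = 0.0743). The limma adjusted p was 0.305 for Wdr92, 0.127 for Kcnk5, 0.472 for Hes6, 0.312 for Lyz2 and 0.149 for Hp. There were 0 without the intensity trend (0 higher, 0 lower), although 1224 probes had an unadjusted p under 0.05, and 468 with array weights (322 higher, 146 lower), which set knockout array 2 at 3.08 and knockout array 3 at 0.359. The causes were not tested. Leaving out 1 array gave 0 to 236 calls, 0 to 206 higher and 0 to 30 lower. An offset of 50, the stricter filter, 1 probe per gene and robust eBayes gave 8, 9, 9 and 13. Cav1 was lower in all 16 alternatives. Its log2 difference was -1.80 with an adjusted p of 0.109 without the trend, and -1.93 to -1.60 with 1 array left out. With the replicate number as a block there were 21 calls (15 higher), among them all 10, although the numbers do not pair the samples. No called gene turned direction in these alternatives. With the GWAT labels turned, the difference of Cav1 between tissues was 6.06 in place of -9.67. Intensities near background, as for Cav1, Cyp2b9 and Cyp2b23, limit the fold changes most.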

Other observations

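Rpa3 and Cav1, both called lower, lie 9.05 Mb apart on chromosome 6 in RefSeq GRCm38.p6, and Ppp1r9a, among the highest-ranked probes short of the threshold, lies 12.4 Mb from Cav1. Within 15 Mb of Cav1 on either side, a window chosen after the values were seen, 75 probes of 55 other genes were compared. Of these, 1 was called (Rpa3), where 0.0751% of all probes were. An unadjusted p under 0.01 was reached by 3 (4%, Rpa3, Ppp1r9a and Aass), where 2.57% of all probes did. At an unadjusted p under 0.05 the share was 9.33% (7 probes), no higher than the 9.91% of all probes. Aass, which starts lysine breakdown, lies 5.83 Mb from Cav1 and had a log2 difference of 1.64 (SE 0.39, limma adjusted p = 0.239). Over the whole chromosome, 18 of 696 probes (2.59%) had an unadjusted p under 0.01.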
